A study of Mus musculus with 3 samples.

Results

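The set described here is 42 genes that encode nuclear receptors and the corepressors and coactivators they recruit, chosen by name from gene families, with earlier results of these data known and by a rule that uses no measured value, out of 20660 genes that could be named on the arrays. They were measured on 3 one-colour Agilent arrays, scanned as intensities although the series title speaks of sequencing. The RNA came from NIH-3T3, an established and immortalised mouse embryonic fibroblast line that the labels call WT, grown to confluence with serum and collected 24 h after treatment. One culture was left untreated (None), another received 20 μM AR7, a small molecule that binds the ligand-binding domain of the retinoic acid receptor RARα, and the last received 20 μM BMS614, a selective RARα antagonist. Both compounds were dissolved in DMSO, and the labels do not say whether the None culture received DMSO. Each condition has 1 array, so differences between the cultures could not be checked on replicates, and no test or p-value is given.

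Nuclear receptors are transcription factors whose ligand-binding domain switches between partners. Without an activating ligand, receptors such as RARα sit on DNA as a pair with a retinoid X receptor and hold a corepressor complex built on N-CoR1 with the deacetylase HDAC3 and the scaffold proteins TBL1X and TBLR1. An activating ligand repositions the last helix of that domain, which releases the corepressors and lets p160 coactivators bind. Many receptors bind DNA as pairs on direct repeats of a short half-site, and the spacing of the repeats favours different pairs. The question put to these arrays was whether the messenger RNAs of the receptors and of their partners differed between cultures exposed to AR7, to BMS614 or to neither compound.

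The best known element of this kind lies in the promoter of Rarb, the gene of RARβ, which retinoic acid induces in many cells. The RefSeq window from 250 bases before to 50 bases after its start site (GRCm38.p6, chr14:16575427-16575726, minus strand) is printed because it holds the direct repeat with a spacing of 5 that RAR and RXR pairs bind, with the match in capitals.
Rarb: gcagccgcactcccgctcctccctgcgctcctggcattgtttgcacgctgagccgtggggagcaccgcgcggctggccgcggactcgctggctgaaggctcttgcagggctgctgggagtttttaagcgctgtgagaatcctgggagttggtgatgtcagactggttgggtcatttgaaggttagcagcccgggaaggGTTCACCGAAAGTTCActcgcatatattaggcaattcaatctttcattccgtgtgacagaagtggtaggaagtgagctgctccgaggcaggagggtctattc
The match lies between 52 and 37 bases before the start site. Both strands of every window were searched for the half-site core GNTCA repeated with spacings of 1 to 5 bases between full half-sites of 6 bases, so that a spacing of 5 is written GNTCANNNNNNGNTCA. A match with one spacing can overlap a match with another. That spacing was found in 283 of 32851 windows (0.861%), and of the 57 windows of the 37 members with one it was found in that of Rarb. The spacing of 3 was found in 0.700% of all windows and in 1 window of a member, that of Rara, as GCTCATCCTGATCA between 29 and 16 bases before the start. Spacings of 1, 2 and 4 were found in 1.26%, 1.12% and 0.858% of all windows and in none of a member. These are matches of letters in a window, and no binding was measured.

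The 42 members had 67 probes, with 1 probe for 21 members and more for the other 21. A gene is given by its brightest probe, as the log2 of its signal after RMA (background correction, quantile normalization over the 3 arrays). Signal depends on the probe as well as on the RNA, so levels were compared between arrays and not between genes. By the scanner's mark for a spot well above its background, 30 members were above background on all 3 arrays, 4 on 1 or 2 of them and 8 on none. No probe of a member was saturated. The error given with each difference is the SD of the log2 difference between a pair of arrays over spots of one probe, read from 267 probes that are printed 10 times and divided by the square root of the number of spots of the probe. For AR7 against None it ran from 0.43 at the lowest signals to 0.05 at the highest. It covers spots on an array and leaves out the spread between cultures, labellings and hybridizations.

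Across the whole arrays, the 75th percentile of spot intensity was 692 for None, 780.5 for AR7 and 909 for BMS614, and 55.4%, 61.3% and 61.8% of probes were above background. The part of this brightness difference in the results for dim members was not tested. All 3 arrays lie on 1 slide. Of 10 fibroblast markers, 9 were above background on all arrays, with Col3a1 near the background at 5.57, 5.23 and 5.28 for None, AR7 and BMS614, and Postn was above it on none. Of the markers of other cell types, Alb, Ttr, Epcam, Krt19 and Adipoq were above background on no array, while Cdh1, Krt14, Cd3e, Pecam1 and Fabp4 were above it on all.

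**Figure D1:**
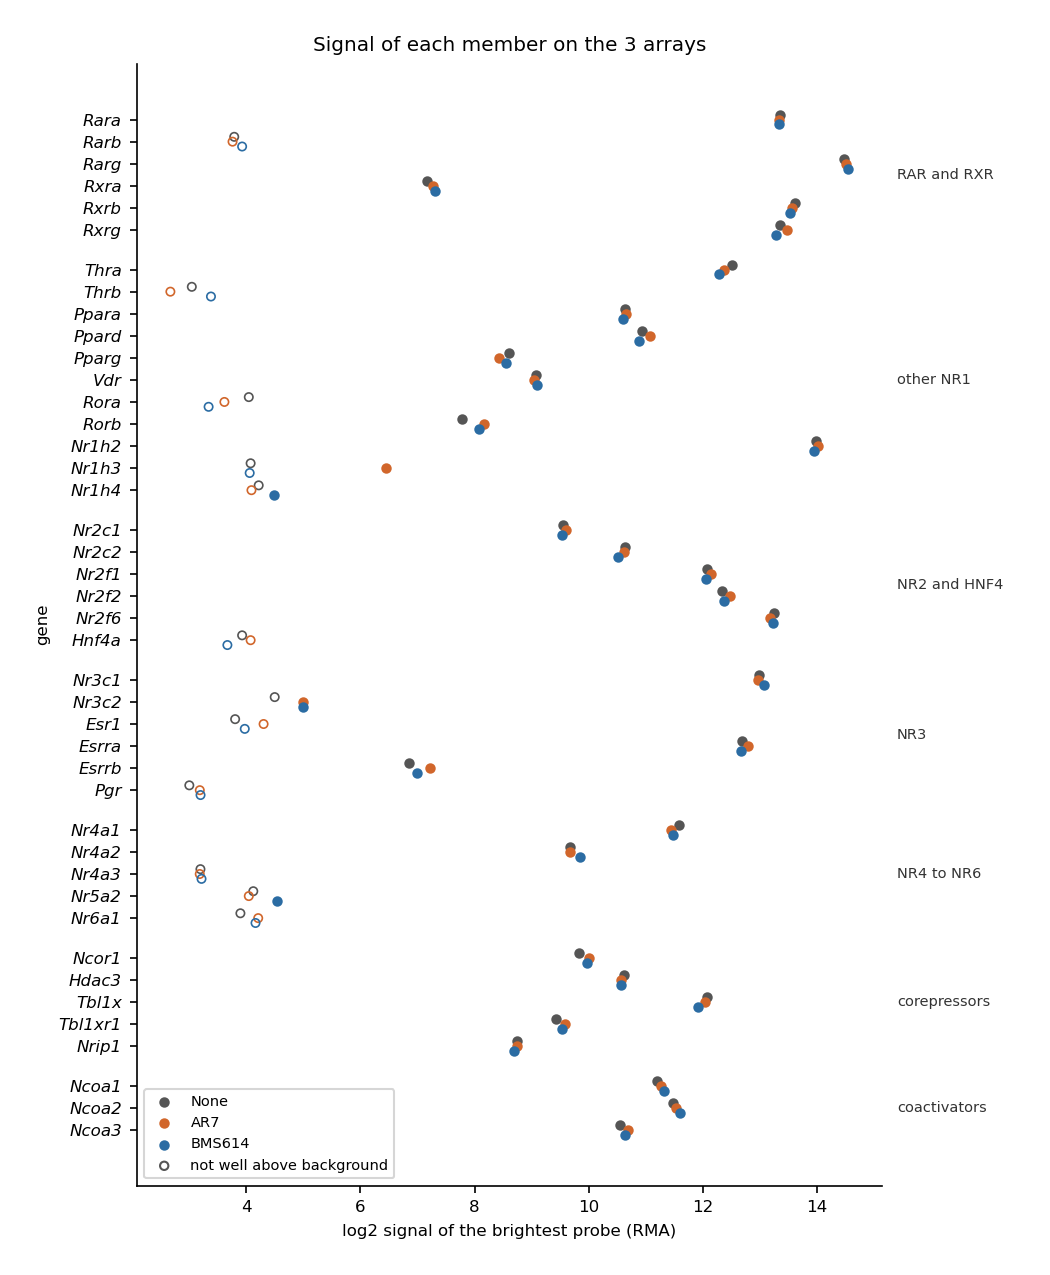
Log2 signal of the brightest probe of each of the 42 members (x axis) on the None, AR7 and BMS614 arrays, with genes in rows by role and open circles where the probe was not well above background. The 3 points of a gene lie close together for the 30 members above background on all arrays, and Nr1h3 is seen above background with AR7 alone. Positions of different genes are not comparable, since each has a probe of its own.

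Differences in the members were small with both compounds. Against None, the largest absolute log2 difference among the 30 members above background on all arrays was 0.38 with AR7 (1.30-fold) and 0.29 with BMS614 (1.22-fold), both in Rorb. The median absolute difference was 0.06 with AR7 and 0.08 with BMS614, against 0.08 and 0.09 over the 13805 named genes above background on all arrays. With AR7, 1 of 32 members above background on either array passed 2-fold, Nr1h3, where 1.01% of all genes did (152 of 15001). With BMS614, 0 of 33 members passed 2-fold, where 1.03% of all genes did (155 of 15062).

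A second rule counted differences larger than 2 SD of repeated spots among genes above background on both arrays. With AR7, 9 of 30 members passed it, beside 18.6% of all genes. Of these, 6 were higher (Ppard, Rorb, Nr2f2, Ncor1, Tbl1xr1 and Ncoa3), beside 9.36% of all genes, and 3 were lower (Thra, Pparg and Nr4a1), beside 9.24%. With BMS614, 7 of 30 passed, beside 26.3% of all genes. The 5 higher were Rorb, Nr4a2, Ncor1, Ncoa1 and Ncoa2, beside 13.3% of all genes, and the 2 lower were Thra and Tbl1x, beside 12.9%. The share with BMS614 was near that of all genes, and whether the share with AR7 differed from it was not tested. Both comparisons use the same None array, so an error on that array enters both.

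**Figure D2:**
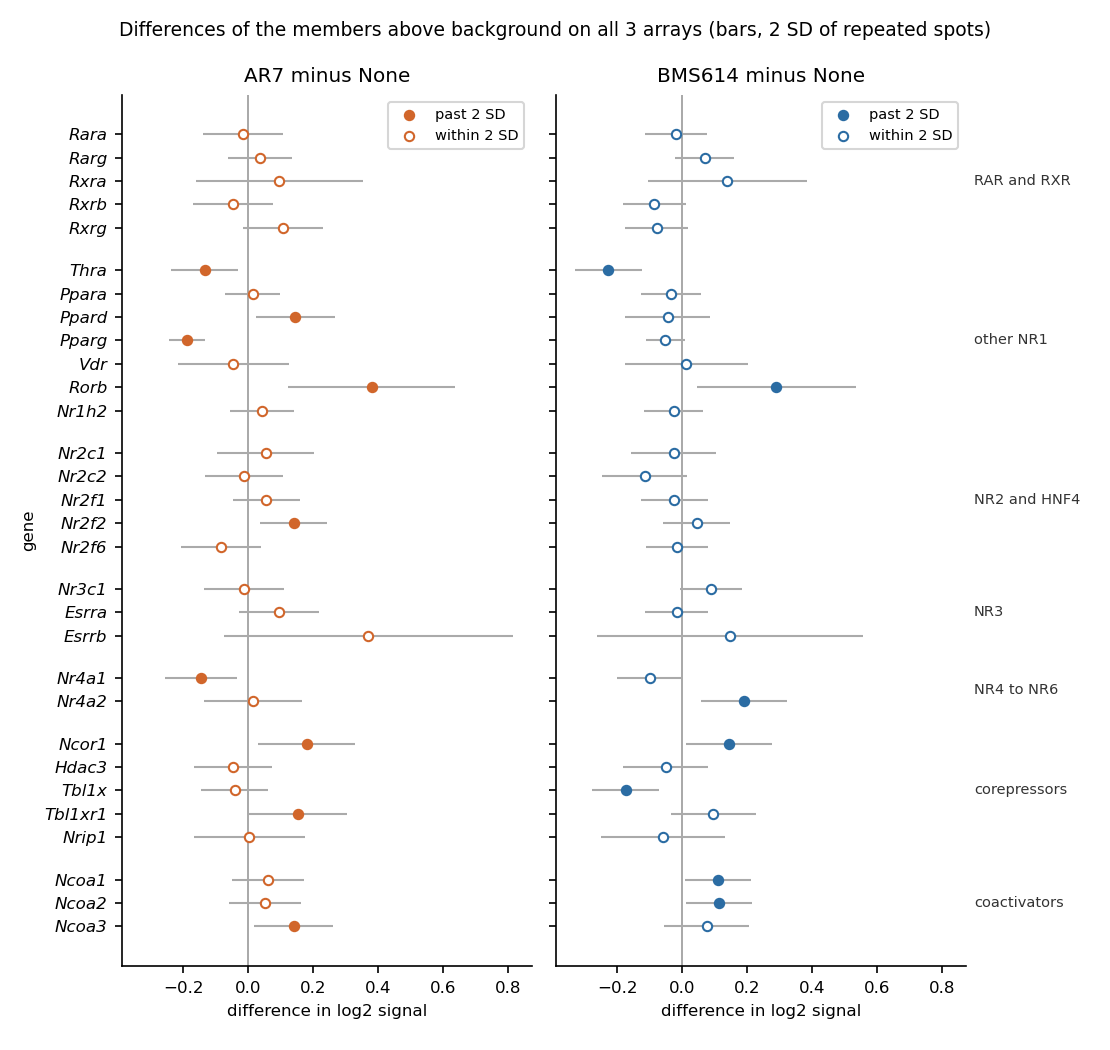
Difference in log2 signal from None (x axis) with AR7 and with BMS614 for the 30 members above background on all arrays, in rows by role, with bars of 2 SD of repeated spots and filled circles for differences past 2 SD. Rorb lies to the right in both panels at 0.38 and 0.29, Thra to the left at -0.13 and -0.23, and most bars cross 0. The bars hold the error of spots only.

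The retinoic acid receptors, among them the RARα that both compounds bind, and their RXR partners showed little difference. Rara, which encodes RARα, gave a log2 signal of 13.35 for None, 13.33 for AR7 and 13.33 for BMS614, a difference of -0.02 (SD 0.06) with AR7 and of -0.02 (SD 0.05) with BMS614. Its other probe read 10.92, 10.98 and 10.60, so that BMS614 was lower by this probe, with a difference of -0.33 (SD 0.07), while AR7 differed by 0.05 (SD 0.06). The brighter probe of Rara showed no such drop with BMS614, and the probes of this gene therefore differed.

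Rarg, the gene of RARγ, stood at 14.47, 14.51 and 14.54 for None, AR7 and BMS614, with differences of 0.04 and 0.07 (SD 0.05 in each). Rarb was not well above background by either probe on any array. Its brighter probe had raw intensities of 116.5, 131 and 138 for None, AR7 and BMS614, where the mean fitted background of these arrays was 109.6, 123.0 and 122.4. No level of Rarb, whose promoter is printed above, can therefore be compared between the cultures.

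Rxra, the gene of RXRα, read 7.17, 7.27 and 7.31 for None, AR7 and BMS614 by one probe and 6.57, 6.85 and 6.86 by the other. AR7 was higher than None by 0.10 (SD 0.13) and 0.28 (SD 0.22), and BMS614 by 0.14 (SD 0.12) and 0.29 (SD 0.20), none past 2 SD. Rxrb stood at 13.61, 13.56 and 13.52, with differences of -0.05 (SD 0.06) and -0.09 (SD 0.05). Rxrg read 13.36, 13.47 and 13.28, with differences of 0.11 (SD 0.06) and -0.08 (SD 0.05), by one probe. The other probe of Rxrg was above background on no array, so its bright reading rests on 1 probe and 1 spot. By their brightest probes none of the 5 measured genes of this family passed 2 SD with either compound.

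The other NR1 receptors held the widest differences on both sides. Thra, the gene of the thyroid hormone receptor α, was lower with both compounds by both of its probes. The brighter probe read 12.51 for None, 12.38 for AR7 and 12.28 for BMS614, a difference of -0.13 (SD 0.05) and -0.23 (SD 0.05). The dimmer probe read 7.02, 6.41 and 6.17, and its differences were larger, at -0.61 (SD 0.22) and -0.86 (SD 0.20). Its paralogue Thrb was above background on no array by either probe. Rorb, an orphan receptor best known from the retina and the circadian system, was higher with both compounds. Its signal was 7.78 for None, 8.16 for AR7 and 8.07 for BMS614, which gave 0.38 (SD 0.13) and 0.29 (SD 0.12). A fainter probe of Rorb read 5.26, 5.61 and 5.68, and its differences of 0.35 (SD 0.43) and 0.42 (SD 0.35) had the same sign and lay within 2 SD. Rora, its paralogue, was above background on no array.

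Pparg, the gene of the adipogenic receptor PPARγ, was printed 10 times on each array, which gives it the smallest error of the members above background. Its 10 spots ran from 8.48 to 8.73 with a median of 8.59 for None, from 8.32 to 8.53 with a median of 8.42 for AR7, and from 8.42 to 8.75 with a median of 8.55 for BMS614. The spots of AR7 and None overlapped narrowly, and at matched positions AR7 was lower in 10 of 10 spots, with a mean difference of -0.19 (SD 0.08 over spots). BMS614 was lower than None in 6 of 10 spots, with a mean difference of -0.05 (SD 0.16). These spots repeat 1 hybridization and are no replicates of the culture.

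**Figure D3:**
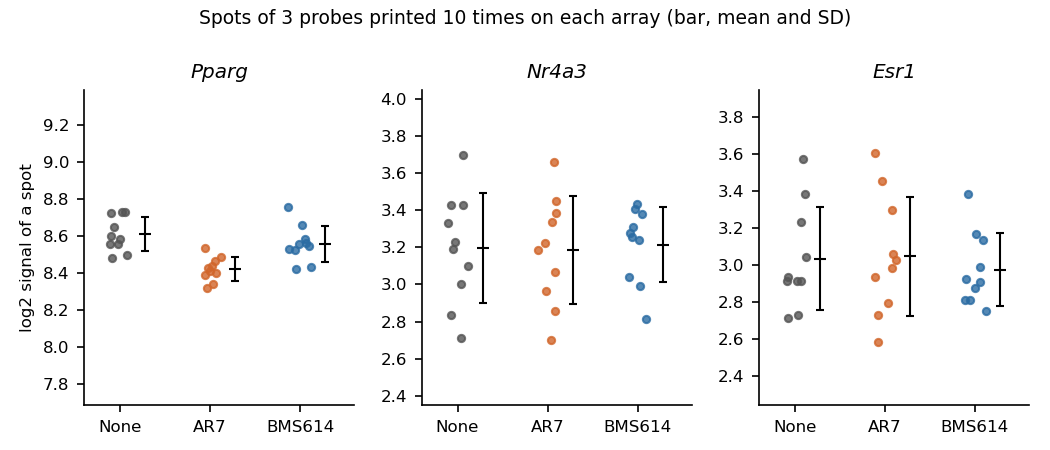
Log2 signal (y axis) of each of the 10 spots of the Pparg, Nr4a3 and Esr1 probes on the None, AR7 and BMS614 arrays, with the mean and SD of the spots beside them. The spots of Pparg lie lowest on the AR7 array, with a mean of 8.42 against 8.61 for None, while the spots of Nr4a3 and Esr1, of which 0 of 10 were well above background on any array, overlap throughout.

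Ppard, the gene of the widely expressed fatty acid sensor PPARδ, read 10.93 for None, 11.08 for AR7 and 10.89 for BMS614, so AR7 was higher by 0.15 (SD 0.06) and BMS614 differed by -0.04 (SD 0.07). Ppara, the receptor that fibrates activate, read 10.64, 10.65 and 10.60 by a probe with 2 spots, with differences of 0.01 and -0.04, and its remaining probes were above background on no array. Vdr, the vitamin D receptor gene, stood at 9.08, 9.03 and 9.09, with differences of -0.05 (SD 0.09) and 0.01 (SD 0.10). The oxysterol receptor LXRβ is encoded by Nr1h2, which read 13.98, 14.02 and 13.95 and differed by 0.04 and -0.03. Of these 4 genes, Ppard passed 2 SD with AR7 and no other did with either compound.

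Nr1h3, the gene of the oxysterol receptor LXRα, was above background on the AR7 array only. Its probe, with 1 spot, had raw intensities of 121.5 for None, 213.5 for AR7 and 141.5 for BMS614, or 4.08, 6.44 and 4.06 after RMA. Taking the lowest signal above background as the floor on the other arrays, or the probe's own signal where higher, AR7 was at least 3.91-fold higher than None and at least 5.22-fold higher than BMS614. The other probe of Nr1h3 was above background on no array. Abca1 and Abcg1, the best known targets of LXR receptors, were also above background on none. Mylip and Srebf1, LXR targets as well, were above background on at least 1 array. The call rests on 1 spot. It held with the processed signal, with percentile scaling and in the deposited table, and under normexp with an offset of 50, where 0.0533% of all genes passed 2-fold against None, no member did. Nr1h4, the bile acid receptor FXR, was above background with BMS614 only, at least 1.01-fold above None.

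Among the NR2 receptors, Nr2f2, the gene of COUP-TFII, read 12.33 for None, 12.47 for AR7 and 12.37 for BMS614. It was higher with AR7 by 0.14 (SD 0.05) and differed by 0.04 (SD 0.05) with BMS614. The AR7 difference was 0.05 with the processed signal scaled to the 75th percentile and 0.07 in the deposited table. Its relative Nr2f1 (COUP-TFI) stood at 12.08, 12.13 and 12.05, within 2 SD of None with both compounds. By the other probe of Nr2f1, at 10.64, 10.68 and 10.48, BMS614 differed from None by -0.16 (SD 0.07). COUP-TF proteins compete with RAR and RXR pairs for direct repeats. Nr2f6, which encodes a further member of that subfamily, read 13.25, 13.17 and 13.24 and differed by -0.08 (SD 0.06) and -0.02 (SD 0.05).

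The testicular orphan receptors Nr2c1 and Nr2c2 also bind direct repeats. Nr2c1 read 9.55, 9.61 and 9.53 for None, AR7 and BMS614, differences of 0.05 (SD 0.07) and -0.03 (SD 0.07). Nr2c2 read 10.64, 10.62 and 10.52, differences of -0.01 (SD 0.06) and -0.12 (SD 0.07), and its other probe gave 0.14 (SD 0.09) and -0.11 (SD 0.10). Hnf4a, a liver and gut receptor, was above background on no array. In this group Nr2f2 alone passed 2 SD against None by the brightest probe, with AR7.

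Of the steroid receptors, the glucocorticoid receptor gene Nr3c1 was bright and close to level, at 12.98 for None, 12.97 for AR7 and 13.07 for BMS614. Its differences were -0.01 (SD 0.06) and 0.09 (SD 0.05), and by its other probe -0.09 (SD 0.13) and -0.19 (SD 0.12), so that the sign with BMS614 depended on the probe. Esr1 and Pgr, the estrogen and progesterone receptor genes, were above background on no array by any probe. The mineralocorticoid receptor gene Nr3c2 was above background with AR7 (4.99) and BMS614 (5.00) and not with None (4.50). It read 1.41-fold and 1.42-fold higher than None, at a signal where 1 SD of repeated spots was 0.43 and 0.35.

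Esrra encodes ERRα, an orphan receptor that drives genes of mitochondrial metabolism. It read 12.69, 12.78 and 12.67 for None, AR7 and BMS614, differences of 0.10 (SD 0.06) and -0.02 (SD 0.05). Esrrb, a receptor of pluripotent cells, was dim at 6.85, 7.22 and 6.99, and its differences of 0.37 (SD 0.22) and 0.15 (SD 0.20) lay within 2 SD. The steroid and estrogen related receptors thus held no difference past 2 SD with either compound.

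The NR4A receptors are products of immediate early genes. Nr4a1, which encodes NUR77, read 11.58 for None, 11.43 for AR7 and 11.48 for BMS614, lower with AR7, at -0.15 (SD 0.06), and at -0.10 (SD 0.05) with BMS614. Nr4a2 (NURR1) read 9.66, 9.68 and 9.85, higher with BMS614 by 0.19 (SD 0.07) and level with AR7 at 0.02 (SD 0.07). Its other probe gave 0.13 (SD 0.12) and 0.08 (SD 0.13) in the same order. In Nr4a3 (NOR1), 0 of 10 spots were above background on any array. Nr5a2 (LRH-1) was above background with BMS614 only, at least 1.05-fold above None, and Nr6a1, the germ cell nuclear factor, on no array.

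All 5 measured genes of the corepressor group were above background on all arrays. Ncor1, which encodes the corepressor N-CoR1, was slightly higher with both compounds by its brightest probe, at 9.83 for None, 10.01 for AR7 and 9.97 for BMS614. The differences were 0.18 (SD 0.07) and 0.14 (SD 0.07). Its other probes gave 0.04 (SD 0.09) and -0.02 (SD 0.13) with AR7, and 0.18 (SD 0.10) and 0.08 (SD 0.12) with BMS614. The 3 probes of Ncor1 therefore had one sign with BMS614 and both signs with AR7, and only the brightest passed 2 SD. Averaged over its probes, the AR7 difference was 0.07.

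Hdac3, the catalytic subunit of the complex, read 10.61, 10.56 and 10.56 and differed by -0.05 (SD 0.06) and -0.05 (SD 0.07). Tbl1x, a scaffold subunit, read 12.08 for None, 12.04 for AR7 and 11.90 for BMS614, lower with BMS614, at -0.17 (SD 0.05) and at -0.04 (SD 0.05) with AR7. The related scaffold gene Tbl1xr1 read 9.43, 9.58 and 9.52, with 0.15 (SD 0.07) and 0.10 (SD 0.07) by its brightest probe and -0.19 (SD 0.09) and -0.08 (SD 0.10) by the other. With AR7 these probes of Tbl1xr1 stood on opposite sides of 0, both past 2 SD, and the mean over probes was -0.02. Nrip1, which encodes the ligand-dependent corepressor RIP140, read 8.75, 8.75 and 8.69 and differed by 0.00 and -0.06 (SD 0.09 and 0.10). Within the complex the genes did not share one direction with either compound.

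The p160 coactivators were higher than None with both compounds by their brightest probes, by at most 0.14. Ncoa1 (SRC-1) read 11.20 for None, 11.26 for AR7 and 11.31 for BMS614, higher with BMS614 by 0.11 (SD 0.05) and at 0.06 (SD 0.06) with AR7. Its other probes were also higher, by 0.17 (SD 0.07) and 0.28 (SD 0.07) with BMS614, and by 0.09 and 0.01 with AR7. Ncoa2 (TIF2), with 1 probe, read 11.48, 11.53 and 11.59, differences of 0.05 (SD 0.06) and 0.11 (SD 0.05). The third gene, Ncoa3 (SRC-3), read 10.55, 10.69 and 10.63, differences of 0.14 (SD 0.06) and 0.07 (SD 0.07). A faint probe of Ncoa3 gave -0.19 (SD 0.22) and -0.38 (SD 0.20), against the brightest in sign, and the mean over probes with AR7 was -0.03.

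Agreement between probes of one gene was limited. Of 13 members with at least 2 probes above background on all arrays, all probes of a gene had one sign in 7 with AR7 and in 9 with BMS614. Those with AR7 were Rxra, Thra, Rorb, Nr2f1, Nr3c1, Nr4a2 and Ncoa1. Those with BMS614 were Rara, Rxra, Thra, Rorb, Nr2c2, Nr2f1, Nr4a2, Ncor1 and Ncoa1. The widest gap between probes was in Thra, at 0.47 with AR7 and 0.63 with BMS614, without a change of sign.

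**Figure D4:**
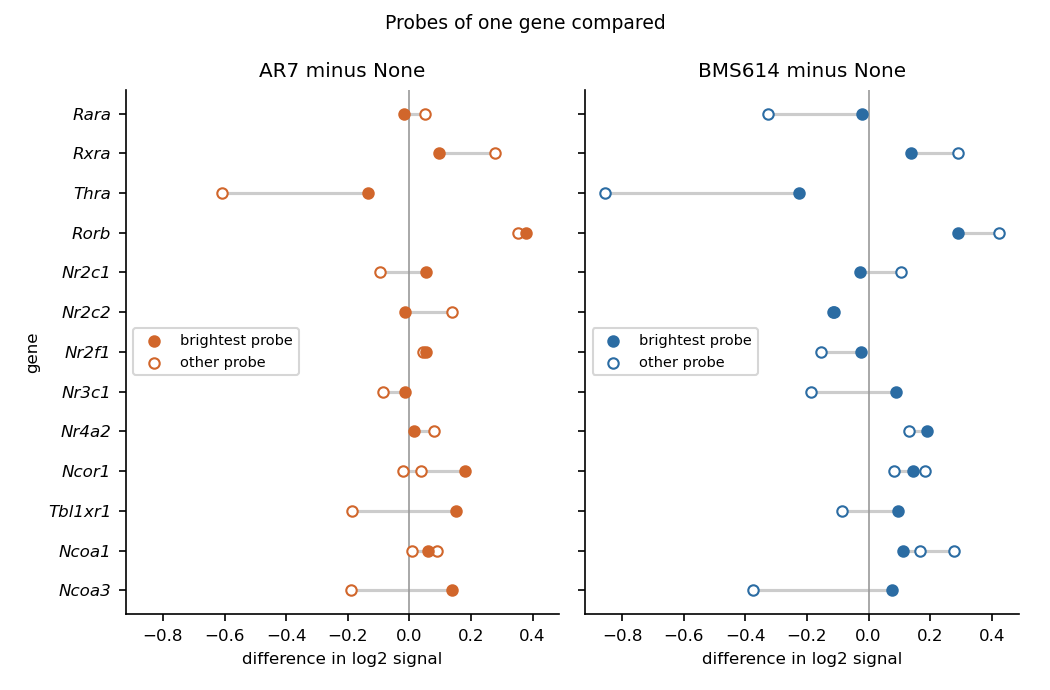
Difference in log2 signal from None (x axis) of every probe above background on all arrays, for the 13 members with at least 2 such probes, with AR7 and with BMS614. Filled circles are the brightest probe of a gene, open circles its other probes and grey lines their range. Both Thra probes lie left of 0 in each panel, at -0.13 and -0.61 with AR7, while those of Tbl1xr1 and Ncoa3 lie on opposite sides.

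The compounds were then compared with each other at the matched dose of 20 μM and time of 24 h. The None signal is not subtracted here, although the None array entered the quantile normalization and the choice of the brightest probe. AR7 and BMS614 differed by at most 0.22 in absolute log2 among the 30 members above background on all arrays (1.17-fold, Esrrb, SD 0.21), with a median absolute difference of 0.07 against 0.09 over all genes. Nr1h3 was the 1 member of 34 past 2-fold, where 1.01% of all genes were (154 of 15317). By the 2 SD rule 10 of 31 members differed, beside 27.5% of all genes. Of these, 7 were higher with AR7 (Rxrg, Thra, Ppard, Nr2f1, Nr2f2, Esrra and Tbl1x), beside 13.9%, and 3 were lower (Pparg, Nr3c1 and Nr4a2), beside 13.6%.

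Nr1h4 and Nr5a2, above background with BMS614 and not with AR7, read 1.31-fold and 1.41-fold lower with AR7. These log2 differences of -0.39 and -0.50 (SD 0.39 in each) lay within 2 SD. The other probe of Nr5a2, above background on no array, read the other way at 0.20 (SD 0.39). Rxrg was higher with AR7 than with BMS614 by 0.19 (SD 0.04) and Ppard by 0.19 (SD 0.06). Tbl1x was higher by 0.13 (SD 0.04) and Esrra by 0.11 (SD 0.04). Thra was higher by 0.09 (SD 0.04) and by 0.25 (SD 0.21) in its dimmer probe. Thra thus stood lowest with BMS614, then AR7, then None, by both probes. The gaps between neighbours of its brighter probe were past 2 SD of repeated spots. Under other processing the compounds stood closer together. The differences from None with AR7 and BMS614 were -0.16 and -0.19 with the processed signal, and -0.14 and -0.19 in the deposited table.

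Nr2f2 was higher with AR7 by 0.09 (SD 0.04), and Nr2f1 by 0.08 (SD 0.04) and, by its other probe, 0.20 (SD 0.06). Pparg was lower with AR7, at -0.14 (SD 0.03), in 9 of 10 spots. Nr4a2 was lower, at -0.17 (SD 0.07) and Nr3c1 at -0.10 (SD 0.04), while the other probe of Nr3c1 read 0.10 (SD 0.12).

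Rara, the receptor both compounds bind, differed by 0.00 (SD 0.04) between AR7 and BMS614 by its brightest probe and by 0.38 (SD 0.06) by the other. Rarg differed by -0.03 (SD 0.04), Ncor1 by 0.04 (SD 0.07) and Hdac3 by 0.00 (SD 0.06), each within 2 SD. All 5 corepressor genes read higher with AR7 than with BMS614 by their brightest probes, from 0.00 to 0.13, and of them Tbl1x passed 2 SD. The remaining probes of Ncor1, at -0.15 (SD 0.09) and -0.10 (SD 0.12), and of Tbl1xr1, at -0.10 (SD 0.09), read the other way. Ncoa1 was lower with AR7 in all 3 probes, from -0.27 to -0.05. With 1 array per compound these values give no interval for a difference between treatments, and a difference within 2 SD does not show that the compounds act alike.

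**Figure D5:**
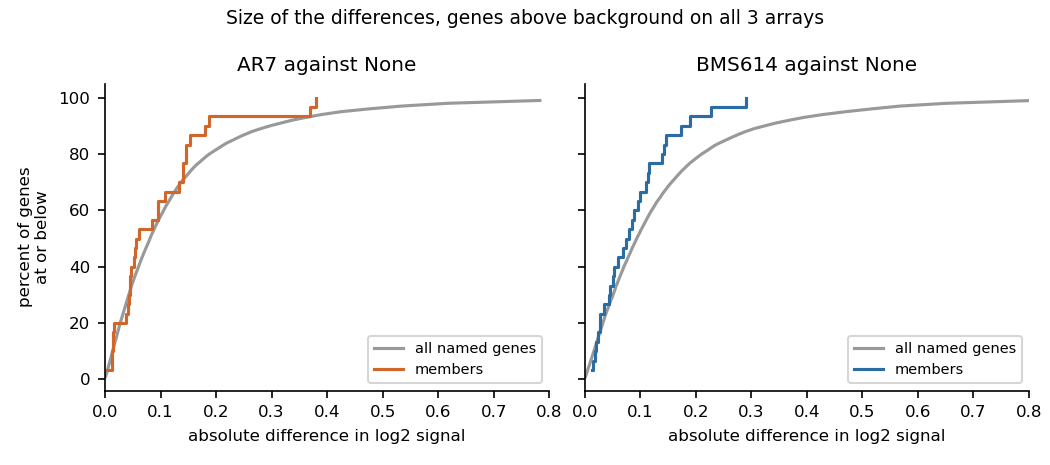
Percent of genes (y axis) whose absolute difference in log2 signal from None was at or below the value on the x axis, with AR7 and with BMS614, for the 30 members (coloured steps) and the named genes above background on all arrays (grey). The medians were 0.06 for members against 0.08 for all genes with AR7, and 0.08 against 0.09 with BMS614, and the steps of the members end at 0.38 and 0.29.

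By direction, 19 members read higher and 11 lower than None with AR7, beside 47.9% of all named genes higher. The median difference was 0.04 against -0.01 over all named genes. The split was 15 to 15 under the scaling of the scanner's processed signal to the 75th percentile, so it depended on the scaling. With BMS614, 13 read higher and 17 lower, beside 49.0% of all genes higher, with a median of -0.02 against -0.00. AR7 was above BMS614 in 20 members and below in 10, beside 49.6% of all genes above, with a median of 0.05 against 0 over all genes. With probes averaged the counts were 16 and 14, with a median of 0.01.

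Lists of related genes outside the set gave the setting. Their counts past 2 SD stand beside the 9.36% of all genes higher and 9.24% lower with AR7, and 13.3% and 12.9% with BMS614. Of 17 other corepressors and partners, 16 were above background on all arrays. By the 2 SD rule 4 were higher and 2 lower with AR7, and 5 higher and 2 lower with BMS614, with medians of 0.02 and 0.03. The deacetylase gene Hdac4 was higher by 0.29 (SD 0.09) and 0.36 (SD 0.10), and Lcor, a ligand-dependent corepressor gene, by 0.45 (SD 0.22) with AR7, beside 0.31 (SD 0.20) with BMS614. Further genes past 2 SD, named after their values were seen, were Rcor1 (higher), Cir1 and Hdac2 (lower) with AR7, and Gps2, Cir1 and Rcor1 (higher), Hdac5 and Hdac7 (lower) with BMS614. Cir1, a corepressor that links DNA-binding factors to deacetylases, read -0.14 (SD 0.06) with AR7 and 0.14 (SD 0.05) with BMS614.

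All 17 other coactivators were above background on all arrays, 4 higher and 2 lower past 2 SD with AR7 (beside 9.36% and 9.24% of all genes) and 6 higher and 1 lower with BMS614 (beside 13.3% and 12.9%), with medians of -0.00 and 0.09. Ppargc1a, which encodes the metabolic coactivator PGC-1α, was higher by 0.61 (SD 0.22) with AR7, beside 0.18 (SD 0.20) with BMS614. This probe was dim, at 5.78, 6.39 and 5.96 for None, AR7 and BMS614, and the other probe of Ppargc1a was above background on no array. The related gene Ppargc1b was higher by 0.35 (SD 0.13) and 0.48 (SD 0.12). The acetyltransferase gene Ep300 read 7.94, 7.91 and 8.40 for None, AR7 and BMS614, higher with BMS614 by 0.46 (SD 0.12) and at -0.03 (SD 0.13) with AR7. The others past 2 SD, named after their values were seen, were Ncoa5 and Ncoa6 (higher) with both compounds, Prmt1 and Pprc1 (lower) with AR7, and Kat2b and Prmt1 (higher) and Crebbp (lower) with BMS614. Prmt1, an arginine methyltransferase, read -0.25 (SD 0.05) with AR7 and 0.12 (SD 0.05) with BMS614.

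Of 14 other nuclear receptors, 7 were above background on all arrays, 1 higher and 1 lower with AR7 and 1 higher and 2 lower with BMS614. Nr1i3, the xenobiotic receptor CAR, read 8.34 for None, 7.69 for AR7 and 7.51 for BMS614, lower, at -0.65 (SD 0.13) and -0.83 (SD 0.12), while its other probe was above background on no array. Nr5a1, the steroidogenic factor SF-1, was higher by 0.24 (SD 0.09) and 0.49 (SD 0.10).

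Of 17 genes of retinoid uptake, synthesis and breakdown, 10 were above background on all arrays, 1 higher and 2 lower with AR7, and 0 higher and 2 lower with BMS614, and none passed 2-fold. The retinoic acid binding protein gene Crabp1 was lower, at -0.16 (SD 0.06) and -0.10 (SD 0.05). Rdh10, an enzyme of retinoic acid synthesis, differed by -0.18 (SD 0.09) and 0.12 (SD 0.10), and Stra6, a retinol transporter gene, by 0.01 (SD 0.05) and -0.14 (SD 0.05).

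Of 25 genes known to be induced through nuclear receptors, 18 were above background on all arrays, 3 higher and 3 lower with each compound, with medians of -0.02 and -0.01. None passed 2-fold. The adipocyte lipid carrier gene Fabp4, a target of PPARγ, was lower, at -0.28 (SD 0.09) and -0.22 (SD 0.10), beside Pparg at -0.19 and -0.05. Greb1, an estrogen-induced gene, was higher by 0.24 (SD 0.09) and 0.28 (SD 0.10) by one probe and lower, at -0.54 and -0.62 by the other. Hic1, a retinoic acid responsive repressor gene, differed by -0.04 (SD 0.07) with AR7 and by 0.37 (SD 0.07) with BMS614, while its other probe was above background on no array. The others past 2 SD, named after their values were seen, were Cpt1a (higher) and Angptl4 (lower) with both compounds, Klf9 (higher) and Tsc22d3 (lower) with AR7 and Pdk4 (lower) with BMS614. Cpt1a, Angptl4 and Pdk4 are PPAR targets.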

How the data were processed

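Total RNA of 3 NIH-3T3 cultures was labelled with Cy3 and hybridized to Agilent mouse arrays, 1 array per condition, grouped by the treatment in the labels. The authors deposited the median pixel intensity and the processed intensity of each spot from Feature Extraction 10.7.3.1 with no normalization between arrays, the scanner's flags, and a table of processed intensity values on a linear scale whose scaling is not given in the sources used here. The study's methods name RMA. Here the RMA background was computed for each array from the median intensity, followed by quantile normalization and log2 (R 4.3.3, limma 3.58.1), with controls and outlier spots left out and spots of a probe averaged. Further steps used Python 3.11.15, numpy 2.4.6, pandas 2.3.3 and matplotlib 3.10.9. RefSeq accessions matched to a gene table of GRCm38.p6 named 27235 of 55681 probes (48.9%), and promoter windows were found for 37 of 42 members.

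A probe with several spots was well above background where at least as many of its kept spots were marked so as not. Errors of repeated spots were taken in 10 bins of signal, from probes printed 10 times. Genes were called past 2-fold, where a dim side counts by its bound, and past 2 SD of repeated spots. With 1 array per condition the number of arrays limits precision and no test was made. The counting rules were tested on simulated data. The members and the gene lists were chosen with earlier results of these data known. Named by rule were all members and, of each other list, the genes past either rule with the 2 largest absolute differences for each compound. Further list genes past 2 SD were named after their values were seen, and Abca1, Abcg1, Mylip and Srebf1 were named beside Nr1h3. A few list genes are left unnamed and not reported here, but remain in the counts and medians of their lists. Alternatives were other background corrections and scalings, the deposited table with values under 16 set to 16, the mean over probes, other filters on dim probes, and other fold and SD thresholds.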

Additional observations from a re-analysis of the deposited data

How the results depend on the processing

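No paired analysis was possible because there is 1 array for each condition. The share of all genes under the same setting stands in parentheses. For AR7 against None, the count of members past 2-fold was 1 and became 0 with normexp (0.0533%), 0 among members above background on all 3 arrays (0.369%) and 4 at 1.2-fold (14.8%). For AR7 against BMS614 it was 1 and became 0 (0.0588%), 0 (0.203%) and 3 (17.2%) under these settings. For BMS614 against None the count of 0 became 2 at 1.2-fold (16.6%). The count past 2 SD of repeated spots with AR7 went from 9 to 7 with the processed signal (24.3%) and to 6 in the deposited table (17.4%). It was 7 with probes averaged (21.1%) and 10 with normexp (18.7%). At 3 SD it fell to 1 (6.94%), and to 3 with an SD pooled over all signal levels (8.60%). With BMS614 the count of 7 became 11 when the probes of a gene were averaged (28.0%), 2 at 3 SD (11.7%) and 1 with the pooled SD (13.0%). Between the compounds the count of 10 became 6 in the deposited table (24.8%), 4 at 3 SD (13.2%) and 1 with the pooled SD (11.4%). The pooled SD is set by dim probes, whose spots vary more. With probes averaged the AR7 difference changed sign in 6 of 30 members, of which Tbl1xr1 (-0.0168) and Ncoa3 (-0.0254) had passed 2 SD and Rara, Ppara, Nr2c1 and Nr2c2 had not. With BMS614 it changed sign in 4, Rxrg, Nr2c1, Nr3c1 and Ncoa3, none past 2 SD before. The processed signal gave 4 other signs with AR7 and 0 with BMS614, normexp 1 and 1, and the values of the deposited table gave 2 and 3, none in a member past 2 SD. The cause of the other shifts was not tested. Of 60 differences of members from None, 15 moved by more than 1 SD of repeated spots as the mean over probes. Tbl1xr1 and Ncoa3 with AR7 are not counted among them. The 15 include sign changes named above, of Ppara and Nr2c2 with AR7 and of Rxrg, Nr2c1, Nr3c1 and Ncoa3 with BMS614. The count was 5 with the processed signal scaled to the 75th percentile. It was 1 with normexp, 1 in the deposited table and 0 with RMA and percentile scaling. Dim probes had an SD up to 0.43, so differences under 2 SD of that size were not detectable in them.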
